A study of Homo sapiens with 9 samples.

Results

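The RNA-seq data of the second TUG1 hairpin line, sh2-TUG1, were compared with those of its control line, sh-Con, across every gene in the table deposited for sh2-TUG1. Members were chosen by label alone: the 3 libraries titled as control and the 3 titled as the second TUG1 hairpin, which are 6 of the 9 libraries of the series, and all 12953 genes of the table. All 9 libraries came from HepG2, an established human liver cancer cell line with many properties of hepatocytes, grown in low-glucose medium with serum. Each line carried a lentiviral vector with a puromycin marker that makes a short hairpin RNA when doxycycline is given. The hairpin was a control in sh-Con, a first TUG1 sequence in sh1-TUG1 and another TUG1 sequence in sh2-TUG1. The labels give no dose or time of doxycycline. In these RNA-seq data each hairpin was represented by 1 HepG2 line, so an effect of the hairpin and a property of the line that carries it cannot be told apart. The methods of the study call the 3 libraries of a group technical replicates, and so the SD, the standard errors and the adjusted p-values cover the spread between these libraries only. TUG1 itself was not analysed here, so its depletion in these libraries was not checked.

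TUG1 is a long non-coding RNA that is made in most human tissues and acts both in the nucleus and in the cytoplasm. Hepatocytes secrete most plasma proteins, break down amino acids and send their nitrogen to urea, oxidise and conjugate foreign compounds, make bile acids and keep glucose and lipids in balance. HepG2 cells keep many of these programmes while they divide. The account below follows these functions in turn, then the dividing-cell and rising genes.

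The counts were those in the deposited table, with 33051617 to 39393293 counts per library. Levels are given as CPM, the count scaled to a common library size, on library sizes scaled by the TMM method of edgeR. All 11 defining genes of HepG2 and hepatocytes were listed, and they summed to 42288 to 44049 CPM in sh-Con and 50548 to 53001 CPM in sh2-TUG1. This sum leans on ALB, the most counted of them, which had a log2 change of 0.91. The 11 did not rise as a set. At an adjusted p under 0.05 (edgeR) 4 were higher and 6 lower, and their median log2 change was -0.145. Of 7 fibroblast markers only PDGFRB was listed, at 21.5, 19.1 and 21.3 CPM in sh-Con and 52.5, 57.5 and 57.8 CPM in sh2-TUG1. VWF and PECAM1 were the endothelial markers listed, with a sum of 8.68 to 9.34 CPM in sh-Con and 12.1 to 13.4 CPM in sh2-TUG1. VWF had a log2 change of 1.65, and PECAM1 (0.12) did not pass the test. The 3 listed blood and immune markers summed to 957 to 1169 CPM in sh-Con and 730.1 to 808 CPM in sh2-TUG1, and CD74 of these did not pass. Both listed bile duct markers summed to 501 to 528 CPM and 349 to 359 CPM. They moved in opposite directions, KRT19 by -1.03 and SOX9 by 0.18 on the log2 scale (adjusted p of SOX9 0.00915, edgeR). The part of other cells in any result was not tested. In bulk RNA, fewer cells of a kind and less RNA per cell cannot be told apart. The first principal component of the 6 libraries (63.8% of the variance) separated the groups. The second (12.3%) set sh-Con replicate 1 and sh2-TUG1 replicate 3 apart from the other 4, and sh-Con replicate 1 was 0.10 lower (log2) than its fellow replicates for genes in the lowest quartile of GC content and 0.09 higher for those in the highest. Results without these 2 libraries, an alternative chosen after the data were seen, are given beside the counts below. Transcripts of the mitochondrial genome took 1.95 to 2.66% of CPM in sh-Con and 1.58 to 1.82% in sh2-TUG1.

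More genes fell than rose. A differentially expressed gene (DEG) passed an adjusted p of 0.05 in the quasi-likelihood test of edgeR (Benjamini-Hochberg, all 12953 genes) and changed by more than 1.5-fold, after the criteria of the study. The sh2-TUG1 line had 564 DEGs above sh-Con (4.35% of the genes) and 1162 below (8.97%). Without sh-Con replicate 1 and sh2-TUG1 replicate 3 the counts were 543 and 1139. At an adjusted p under 0.05 alone, with no limit on the fold, 2803 genes (21.6%) were higher and 2835 (21.9%) lower. The median log2 change over all genes was -0.0048. In 3505 genes (27.1%) every sh2-TUG1 library lay above every sh-Con library, and in 3537 (27.3%) below.

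**Figure D1:**
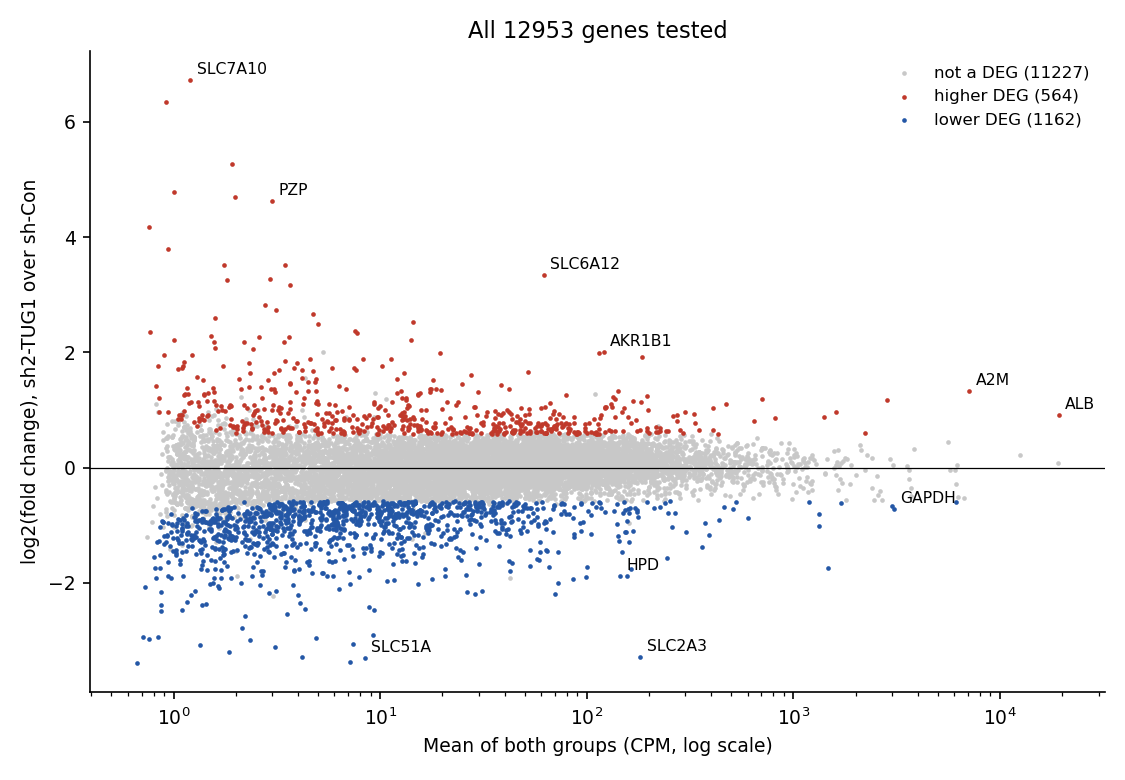
Mean level of both groups (CPM, log axis) against log2(fold change) of sh2-TUG1 over sh-Con for the 12953 genes, 1 point each, with the 564 higher DEGs in red, the 1162 lower DEGs in blue and the rest in grey. Blue points are most frequent at the left, where 20.2% of the genes in the lowest quartile of counts are lower DEGs, while ALB is the most counted of the red points.

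The falls lay mostly among genes with few counts. Of the quartile of genes with the lowest mean counts, 20.2% were lower DEGs and 7.22% higher ones. In the quartile with the highest counts the shares were 2.72% and 3.46%, so that higher DEGs were the more frequent there. The median log2 change moved with the level, from -0.17 in the lowest quartile to 0.07 in the highest. Among the 9265 genes with a mean of at least 10 CPM, a limit also chosen after the data were seen, 515 (5.56%) were lower and 261 (2.82%) higher DEGs. GC content and length moved with the calls too. Lower DEGs made up 5.76% of genes in the lowest quartile of transcript GC content and 12.2% in the highest, and 11.6% of genes with the shortest exonic length against 6.37% of those with the longest. The median of each autosome and of chromosome X lay between -0.04 and 0.06, and that of the 13 protein-coding genes of the mitochondrial genome was -0.36. What part the level, the GC content or the length had in the lower calls was not tested.

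Of the 10 largest rises by the rule for named genes, 5 were genes that overlap no other protein-coding gene. SLC6A12, which encodes a transporter of betaine and GABA, stood at 7.29, 7.86 and 18.1 CPM in sh-Con and 116, 111 and 111 CPM in sh2-TUG1. Its log2(fold change) was 3.34 ± 0.28 (SE), a rise of 10.1-fold at an adjusted p of 1.82e-05 (edgeR quasi-likelihood, Benjamini-Hochberg). sh-Con replicate 3 was the highest control library, and still lay far below the sh2-TUG1 libraries. PZP, which encodes a protease inhibitor of the alpha-2-macroglobulin kind, had 24, 0 and 0 counts in sh-Con and 120, 182 and 323 counts in sh2-TUG1. Its fitted log2 change of 4.62 rests on control libraries at or near 0, and DESeq2 gave an adjusted p of 0.072 for it. RAMP1, a partner of the calcitonin gene-related peptide receptor, rose from 0.874, 0.557 and 0.239 CPM to 5.45, 5.27 and 5.28 CPM. PRRG4, a membrane protein with a Gla domain, was at 0.542, 1.06 and 0.851 CPM in sh-Con and 5.57, 5.65 and 5.18 CPM in sh2-TUG1. C9orf152 rose by 2.82 ± 0.35 on the log2 scale. In each of these genes the libraries of the groups did not overlap, a condition of the rule.

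The other 5 of these rises belong to gene models that overlap a neighbour on the same strand, and how the counting divided reads between them is not given in the sources used here. BCL2L2-PABPN1 (5.26 on the log2 scale, against BCL2L2 and PABPN1), SENP3-EIF4A1 (2.66), AC138894.1 (3.51, against CLN3 and NPIPB7), AC027644.4 (3.17, against KCTD7 and RABGEF1) and CDRT4 (3.25, against TVP23C and TVP23C-CDRT4) are therefore given as uncertain. AC027644.4 was at 0.0301, 1.70 and 0.452 CPM in sh-Con and 12.7, 4.20 and 2.84 CPM in sh2-TUG1, and without sh2-TUG1 replicate 1 its log2 change was 2.27 and its adjusted p 0.058 (edgeR). SLC7A10, a transporter of small neutral amino acids, had the highest fitted change of all 12953 genes (6.73), but with 1, 1 and 0 counts in sh-Con and 71, 83 and 100 counts in sh2-TUG1 it lay below the mean of 50 counts that the rule asked for. It is named after its values were seen. Every row listed reached 1 CPM in at least 3 of the 6 libraries, so a gene near 0 in 1 group was listed only through the other. SLC7A10, PZP, BCL2L2-PABPN1, RAMP1, C9orf152, CDRT4 and AC138894.1 lay below 1 CPM in every sh-Con library. PRRG4 and AC027644.4 reached it in sh-Con replicate 2 alone. All of these were listed in this way through sh2-TUG1, and their rank is not read as a result.

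The 10 largest falls included several genes of membranes and hormones. SLC2A3, which encodes the glucose transporter GLUT3, was at 316, 350.2 and 323 CPM in sh-Con and 33.1, 30.8 and 37.6 CPM in sh2-TUG1, a fall of 9.73-fold with a log2 change of -3.28 ± 0.08 and an adjusted p of 4e-08 (edgeR quasi-likelihood, Benjamini-Hochberg). The spread within each group was small beside this gap. SLC51A, a subunit of the bile acid exporter of the basolateral membrane, fell from 14.9, 17.03 and 14.1 CPM to 1.10, 1.54 and 1.97 CPM. TUBB1, a beta-tubulin best known from platelets, fell from 13.9, 12.7 and 12.8 CPM to 0.791, 1.75 and 1.23 CPM. EPO, the hormone that drives red cell formation and that fetal liver makes, was at 13.1, 12.96 and 13.7 CPM in sh-Con and 1.06, 1.09 and 2.54 CPM in sh2-TUG1. Here sh2-TUG1 replicate 3 was the highest of its group, still well below the controls. SERPINA12, FXYD3 and the nucleoside transporter SLC28A1 had log2 changes of -2.57, -2.78 and -3.20. DMGDH, a mitochondrial enzyme of choline breakdown, had a log2 change of -2.99, but its gene overlaps BHMT and BHMT2 on the other strand, and with no strand stated for the counting their reads cannot be told apart. AC104452.1 (-3.11) overlaps AMT and NICN1, PPAN-P2RY11 (-2.95) overlaps PPAN and P2RY11, and FXYD3 overlaps AC020907.6, all on the same strand, so these 3 are uncertain. PPAN-P2RY11 was listed at 0 in 2 sh2-TUG1 libraries, DESeq2 gave it an adjusted p of 0.36, and 4 of the 6 fits without 1 library ended its call. TUBB1 and SLC51A overlap ATP5F1E and PCYT1A on the other strand. Of these falls, DMGDH, FXYD3 and AC104452.1 lay below 1 CPM in every sh2-TUG1 library. They were listed through sh-Con, and their rank is not read as a result either.

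Lists of secreted liver proteins and of lipoprotein handling, here called the secreted lists, held many lower DEGs, while their most counted member, ALB, rose. The 4 lists held 108 genes that were tested, of which 27 (25.0%) were lower and 3 (2.78%) higher DEGs, against 8.97% and 4.35% of all genes. Without sh-Con replicate 1 and sh2-TUG1 replicate 3, 31 were lower. Among the 85 with a mean of at least 10 CPM, 22 (25.9%) were lower, against 5.56% of all genes at that level. The median log2 change over the 4 lists was -0.26. ALB, PZP and A2M were the 3 that rose. ALB, albumin, the main protein of plasma, lies on chromosome 4, 73397114 to 73421412 (GRCh38) and had 418924, 447851 and 541035 counts in sh-Con and 824915, 848061 and 980062 counts in sh2-TUG1. It rose from 13377 ± 908 to 25099 ± 16.7 CPM (SD, n = 3), a log2 change of 0.91 ± 0.05 with an adjusted p of 1.51e-06 (edgeR quasi-likelihood, Benjamini-Hochberg). The sh2-TUG1 libraries lay close together and none came near a control. A2M, the broad protease inhibitor alpha-2-macroglobulin, rose from 3620.0, 3465 and 5066 CPM to 9803, 9708 and 11019 CPM, and its relative PZP is described above. AFP, the fetal counterpart of albumin, was higher at an adjusted p under 0.05 with a log2 change of 0.44, below the fold limit.

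Of the carriers and acute-phase proteins, 7 of 35 were lower DEGs and the median log2 change was -0.23. CP, the copper oxidase ceruloplasmin, fell from 376, 375 and 352 CPM to 119, 119 and 133 CPM (-1.57 ± 0.06 on the log2 scale). SERPINA1, alpha-1-antitrypsin, had the most CPM of the lower DEGs in the whole table, at 8498, 6763 and 6824 CPM in sh-Con and 4616, 4583 and 5398 CPM in sh2-TUG1. Its log2 change was -0.60 ± 0.09 with an adjusted p of 0.000799 (edgeR quasi-likelihood, Benjamini-Hochberg), just past the fold limit. HP, the haemoglobin binder haptoglobin, stood at 20.4, 17.6 and 15.98 CPM in sh-Con and 7.18, 6.21 and 8.33 CPM in sh2-TUG1, with no overlap of the groups, and it overlaps TXNL4B on the other strand. TTR and SERPINA6, carriers of thyroid hormone and of cortisol, had log2 changes of -0.82 and -0.92, KNG1, a kinin precursor, -1.22, and LCN2, a binder of bacterial iron carriers, -0.85. TF, transferrin, with 7511, 7317 and 7190.2 CPM in sh-Con and 5127, 5099 and 5312 CPM in sh2-TUG1, fell at an adjusted p of 1.07e-05 (edgeR) without reaching the fold limit.

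The coagulation and complement lists held falls and no rise past the fold limit. VWF, a clotting protein counted here with the endothelial markers and in neither list, was a higher DEG (1.65). In coagulation and fibrinolysis 4 of 24 (16.7%) were lower DEGs, against 8.97% of all genes, with a median of -0.20. CPB2, which slows clot lysis, had a log2 change of -1.03. F12 (-0.71) and F13B (-0.80) were below 5 CPM in every library. Leaving out single libraries ended the call of F12 in 4 of 6 fits (adjusted p up to 0.081) and that of F13B in 5 (up to 0.15, edgeR). The fibrinogen chains did not fall together: FGB was 0.29 with an adjusted p of 0.0136, above sh-Con, while FGG was -0.24 with an adjusted p of 0.0026 (edgeR). Of 22 complement genes 5 (22.7%) were lower DEGs, against the same share of all genes. C8G, a chain of the membrane attack complex, was at 12.8, 13.3 and 14.9 CPM in sh-Con and 4.84, 4.76 and 2.49 CPM in sh2-TUG1, and MBL2, the lectin that starts one route of complement, at 5.69, 7.77 and 7.26 CPM in sh-Con and 1.52, 2.01 and 2.82 CPM in sh2-TUG1. CFB and SERPING1, a protease and an inhibitor of the cascade, had log2 changes of -0.86 and -0.68. C3, the most counted of them, had a log2 change of -0.48, within the fold limit. CFI was called lower (-0.62) although sh2-TUG1 replicate 3 lay within the range of the controls, at 61.6, 60.5 and 84.1 CPM in sh-Con and 36.4, 35.7 and 62.3 CPM in sh2-TUG1. DESeq2 gave it an adjusted p of 0.11, and 3 of the 6 fits without 1 library ended its call. CFB overlaps C2 on the same strand.

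Apolipoproteins and lipoprotein handling had the largest share of lower DEGs of the 4 secreted lists, 11 of 27 (40.7%, against 8.97% of all genes). None was higher, and the median log2 change was -0.57. ANGPTL4, an inhibitor of lipoprotein lipase, fell from 9.61, 9.79 and 11.2 CPM to 2.46, 2.04 and 2.61 CPM (-2.10 ± 0.15, adjusted p of 8.49e-06 by edgeR). Of the APOL genes, APOL1 fell from 244, 251 and 246 CPM to 69.2, 66.3 and 65.4 CPM and APOL2 from 95.4, 94.9 and 91.8 CPM to 37.6, 34.1 and 32.2 CPM, both with libraries close together. APOL3 was near 1 to 3 CPM with a log2 change of -1.41. PLTP, which moves phospholipids between lipoproteins, APOC3, a brake on triglyceride clearance, and LIPC, hepatic lipase, had log2 changes of -1.24, -1.13 and -0.87. APOB, the structural protein of very low density lipoproteins, was at 6195, 5950.2 and 6301 CPM in sh-Con and 5627, 5613 and 6585 CPM in sh2-TUG1 with overlapping groups (-0.05). APOA2 was called lower (-0.61, adjusted p of 0.041) at 2207, 1738 and 2245 CPM in sh-Con and 1056, 1047 and 1939 CPM in sh2-TUG1. Its sh2-TUG1 replicate 3 lay among the controls, DESeq2 gave an adjusted p of 0.13, and leaving out single libraries gave adjusted p-values up to 0.15 and ended the call in 4 of 6 fits (edgeR).

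**Figure D2:**
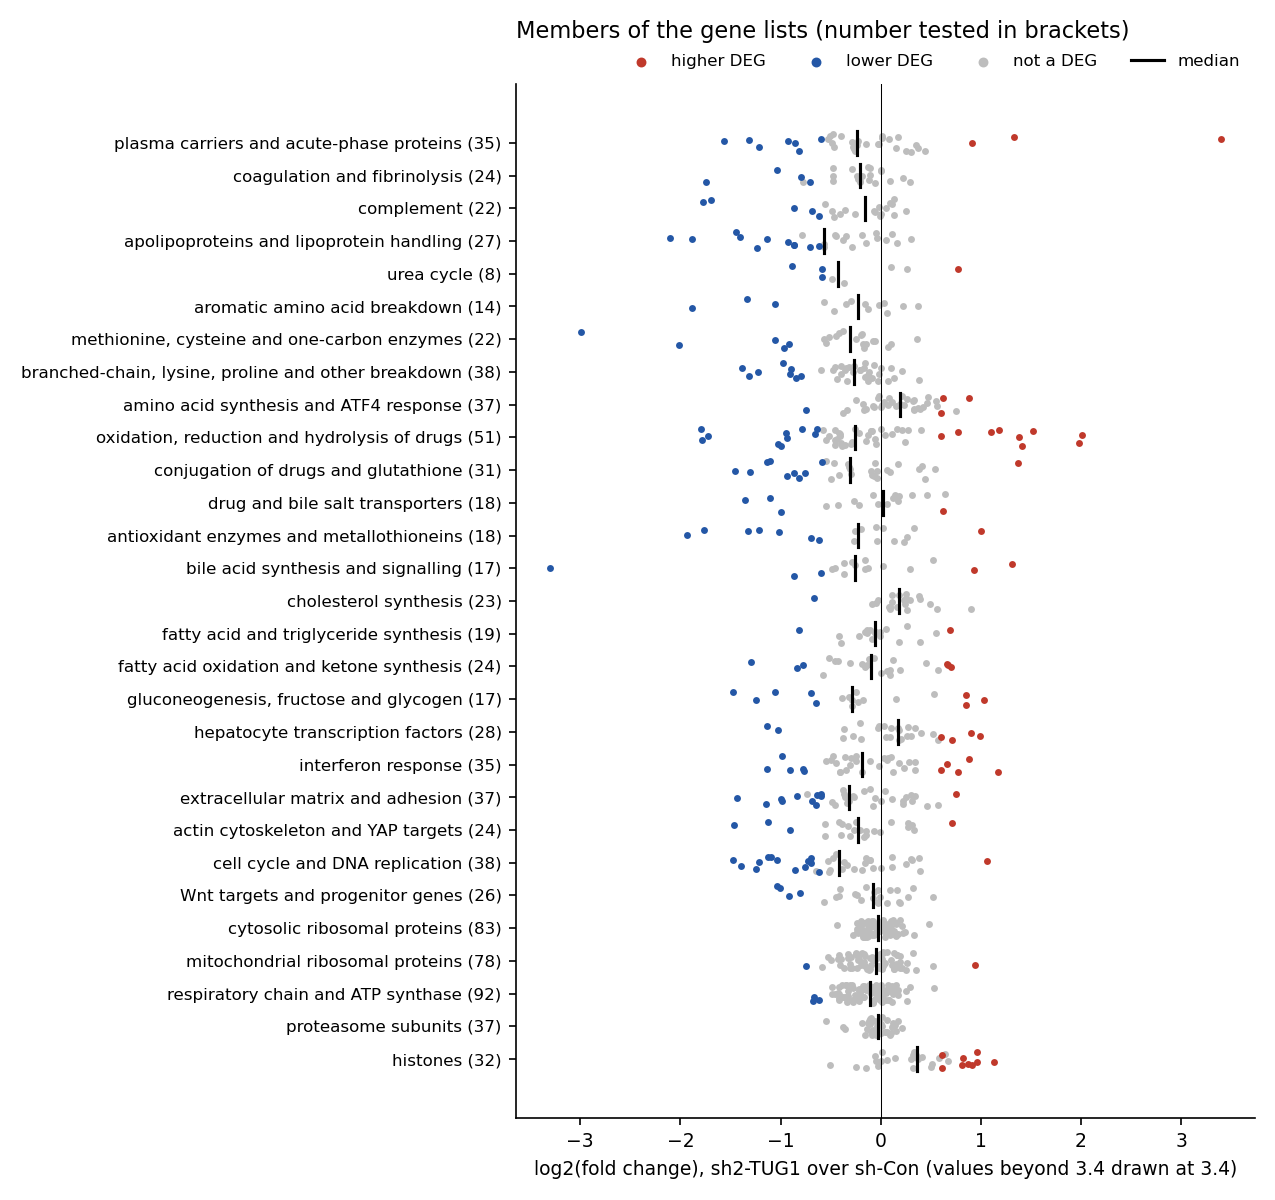
log2(fold change) of sh2-TUG1 over sh-Con for each member of the gene lists, 1 point per gene and 1 row per list, with higher DEGs red, lower DEGs blue, others grey and a black bar at the median. The bar lies left of 0 for apolipoproteins (-0.57), the urea cycle (-0.43) and the cell cycle (-0.42) and right of 0 for histones (0.36), and ribosomal and proteasome genes gather around 0.

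**Figure D3:**
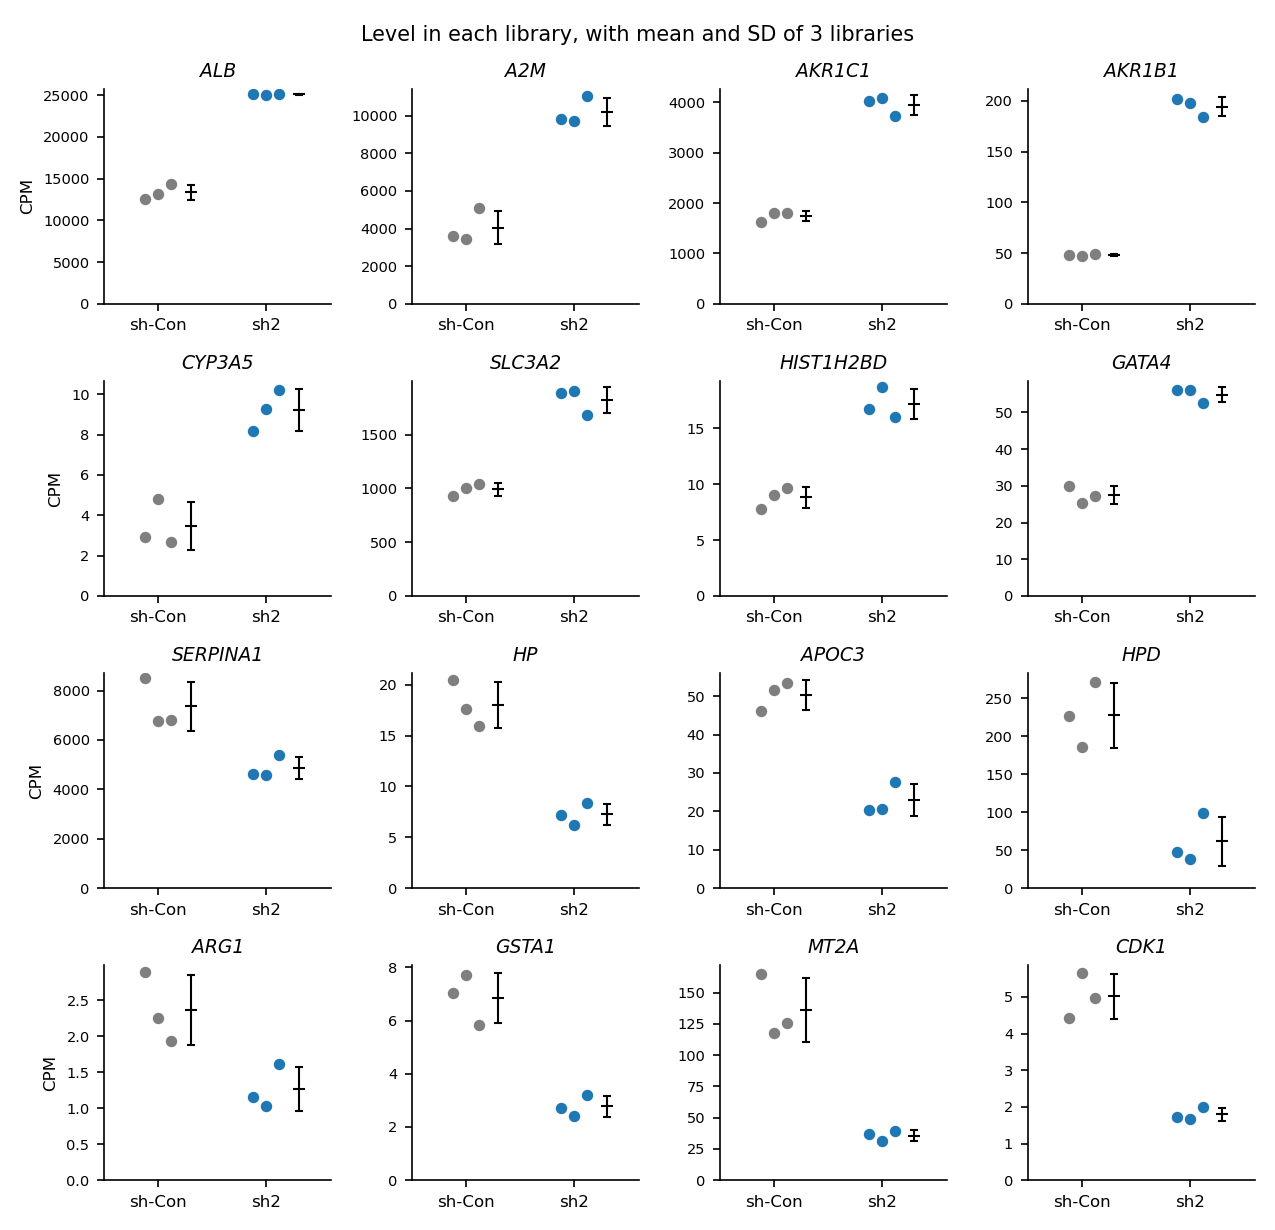
CPM of 16 genes named in the text in each of the 3 sh-Con libraries (grey) and 3 sh2-TUG1 libraries (blue), with the mean and SD beside them and each axis starting at 0. In all 16 panels the groups do not overlap, with ALB, A2M, AKR1C1, AKR1B1, CYP3A5, SLC3A2, HIST1H2BD and GATA4 higher and the other 8 lower in sh2-TUG1.

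Enzymes that break down amino acids fell more often than they rose. Over the 4 lists of breakdown enzymes, 19 of 82 tested genes (23.2%) were lower DEGs and 1 (1.22%) was higher, against 8.97% and 4.35% of all genes. At an adjusted p under 0.05 alone, 47 of the 82 (57.3%) were lower and 6 (7.32%) higher, against 21.9% and 21.6% of all genes. The median log2 change was -0.28. With the synthesis list added, 20 of 119 were lower, 19 without the 2 libraries that stood apart, and 13 of the 105 with at least 10 CPM (12.4%), against 5.56% of all genes at that level.

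In the urea cycle, 3 of 8 genes (37.5%) were lower DEGs, where 8.97% of all genes were. ASL, which splits argininosuccinate, fell from 132, 142 and 137 CPM to 94.7, 90.5 and 88.1 CPM, and SLC25A15, the mitochondrial ornithine carrier, changed by -0.59 on the log2 scale. ARG1, the arginase of the hepatocyte cytosol, was at 2.89, 2.26 and 1.94 CPM in sh-Con and 1.16, 1.04 and 1.61 CPM in sh2-TUG1, and its call ended in 3 of the 6 fits without 1 library, at adjusted p-values up to 0.073 (edgeR). ARG1 and ARG2 overlap MED23 and VTI1B on the other strand. ARG2, the mitochondrial arginase, rose from 106, 129.8 and 127 CPM to 214, 203 and 201 CPM (0.77 ± 0.07, adjusted p of 4.65e-05 by edgeR). CPS1, the entry enzyme of the cycle, was -0.37 and ASS1 0.26, each below the fold limit and in opposite directions.

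Of 14 genes of aromatic amino acid breakdown 3 (21.4%) were lower DEGs. HPD, which oxidises the keto acid of tyrosine, fell from 226, 185 and 271 CPM to 47.5, 38.7 and 98.4 CPM (-1.88 ± 0.30, adjusted p of 0.000853 by edgeR). The spread of HPD was wide in both groups, with sh2-TUG1 replicate 3 the highest of its group. FAH, the last step of the tyrosine route, fell from 50.6, 54.5 and 51.9 CPM to 25.4, 26.2 and 23.96 CPM, and HAAO, of the route from tryptophan to NAD, from 15.1, 11.7 and 11.7 CPM to 4.72, 3.61 and 6.84 CPM.

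Among methionine, cysteine and one-carbon enzymes 5 of 22 (22.7%) were lower DEGs, and 14 (63.6%) were lower by adjusted p alone, against 8.97% and 21.9% of all genes. BHMT, which remethylates homocysteine with betaine, was at 2.41, 2.70 and 2.13 CPM in sh-Con and 0.456, 0.355 and 0.948 CPM in sh2-TUG1, and DMGDH on the other strand is described above. FTCD, of histidine and folate, fell from 29.1, 33.01 and 30.5 CPM to 14.2, 14.997 and 15.3 CPM and ALDH1L1, the cytosolic folate dehydrogenase, from 36.2, 40.95 and 37.5 CPM to 19.99, 21.4 and 19.3 CPM, with no overlap of groups in either. AMT, of the glycine cleavage system, had a log2 change of -0.96 and overlaps AC104452.1, which fell too.

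In the remaining breakdown list, of branched-chain amino acids, lysine, proline, serine and glyoxylate, 8 of 38 (21.1%, against 8.97% of all genes) were lower DEGs and none higher. AGXT, the peroxisomal enzyme that clears glyoxylate, was at 3.58, 2.73 and 3.96 CPM in sh-Con and 1.22, 1.33 and 1.38 CPM in sh2-TUG1. PRODH2, of hydroxyproline breakdown, fell from 17.2, 16.6 and 16.8 CPM to 6.84, 7.51 and 7.28 CPM. ALDH4A1, of proline breakdown, fell from 184, 186 and 188 CPM to 97.5, 96.6 and 89.2 CPM, with libraries close within each group (-0.98 ± 0.05, adjusted p of 1.26e-06 by edgeR). SDSL, ALDH6A1, ALDH7A1, BCAT2 and BCKDHB, of serine, valine, lysine and the branched chains, were the other lower DEGs, SDSL at -1.32 and BCKDHB at -0.79 on the log2 scale. BCAT2 lost its call without 2 single libraries, at adjusted p-values up to 0.095 (edgeR). GLUL, glutamine synthetase, the most counted member, had a log2 change of -0.15.

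Amino acid synthesis and the targets of ATF4, the factor of the amino acid response, moved upward more often than downward but seldom past the fold limit. Of 37 genes 18 (48.6%) were higher and 7 (18.9%) lower by adjusted p alone, against 21.6% and 21.9% of all genes, so that the share of lower genes was near that of all genes. The median was 0.19, and 3 were higher and 1 lower DEGs. The 3 higher DEGs were transporters. SLC38A2, which takes up neutral amino acids, rose from 1512, 1914 and 1849.6 CPM to 2748, 2735 and 2508 CPM, SLC3A2, the heavy chain of several exchangers, from 928, 1001 and 1039 CPM to 1885, 1901 and 1677 CPM (0.88 ± 0.06), and SLC6A9, a glycine transporter, from 94.2, 85.6 and 82.1 CPM to 135, 129 and 138 CPM. TRIB3 and ATF3 had log2 changes of 0.43 and 0.56, while ASNS, asparagine synthetase and a well-known ATF4 target, was -0.17 and DDIT4, an inhibitor of mTOR signalling, -0.74. The list thus did not move one way.

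Detoxification genes moved in both directions. Of 118 rows tested, with SOD2 listed under 2 identifiers, 29 (24.6%) were lower and 12 (10.2%) higher DEGs, against 8.97% and 4.35% of all genes, and the median log2 change was -0.21. Without sh-Con replicate 1 and sh2-TUG1 replicate 3 there were 31 and 9, and among the 92 genes with at least 10 CPM 16 (17.4%) and 8 (8.70%), against 5.56% and 2.82% of all genes at that level. Of the 12 rises, 9 were in oxidation, reduction and hydrolysis, where 9 of 51 were higher and 10 lower.

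Of the 9 rises, 5 were aldo-keto reductases, which reduce sugars, steroids and aldehydes. AKR1B1, aldose reductase, which turns glucose into sorbitol, was at 48.05, 47.2 and 49.6 CPM in sh-Con and 202, 198 and 184 CPM in sh2-TUG1, a 4.03-fold rise (2.01 ± 0.06, adjusted p of 5.68e-08 by edgeR quasi-likelihood with Benjamini-Hochberg adjustment). AKR1C1, a steroid and carbonyl reductase, rose from 1624, 1799 and 1809.7 CPM to 4038, 4082 and 3727 CPM. Its near copies AKR1C2, AKR1C3 and AKR1C4 were also higher DEGs at 1.10, 0.60 and 1.38, and since their sequences are alike the reads may have been shared among them. AKR1B10 did not pass the test (0.01). Of the cytochrome P450 enzymes, CYP3A7, the fetal member of the main drug-oxidising family, rose from 7.62, 6.54 and 9.54 CPM to 30.5, 31.2 and 32.1 CPM, CYP3A5 from 2.92, 4.81 and 2.66 CPM to 8.15, 9.26 and 10.2 CPM, and CYP1A1, which oxidises aromatic hydrocarbons, from 11.2, 7.71 and 8.91 CPM to 29.7, 26.3 and 24.1 CPM. CYP3A5 and CYP3A7 are alike in sequence too.

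The falls of this list included esterases and other P450 enzymes. CES3, a carboxylesterase, was at 5.66, 3.66 and 3.32 CPM in sh-Con and 1.43, 1.30 and 0.923 CPM in sh2-TUG1, and CES1, the main one of liver, fell from 96.4, 91.4 and 94.8 CPM to 63.1, 62.5 and 56.998 CPM. CYP4F2 and CYP4F3, which hydroxylate fatty acids and vitamin E or leukotrienes, had log2 changes of -1.79 and -1.03. ALDH3B1, ADH4 and EPHX2, an aldehyde dehydrogenase, an alcohol dehydrogenase and an epoxide hydrolase, were at -1.72, -0.95 and -0.99. CYP4F12, CYP2S1 and AKR7A2 were lower DEGs as well.

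Conjugation enzymes fell more often than they rose, with 9 of 31 lower DEGs, 1 higher and a median of -0.31. NAT8, which acetylates cysteine conjugates, was at 2.32, 2.76 and 3.46 CPM in sh-Con and 0.973, 1.04 and 1.10 CPM in sh2-TUG1. GSTA1, a glutathione transferase of liver, fell from 7.02, 7.71 and 5.85 CPM to 2.71, 2.40 and 3.20 CPM, and its near copy GSTA2 with a log2 change of -1.11. SULT1C2 and SULT1A1, which add sulfate, changed by -1.14 and -0.75. UGT2B4, which couples glucuronic acid to bile acids, was the exception and rose from 20.9, 25.03 and 24.8 CPM to 58.9, 59.3 and 64.6 CPM (1.37 ± 0.08). Among transporters of drugs and bile salts 3 of 18 (16.7%) were lower DEGs, namely SLCO2B1 (-1.35), ABCC3 (-1.10) and SLC22A18 (-0.99). ABCC5 was higher (0.62), 5.56% of the list, and the median of the list was 0.02. ABCC2, the canalicular exporter of conjugates and the most counted of them, had a log2 change of -0.22.

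The metallothioneins, small proteins that bind zinc and copper and that zinc induces through the factor MTF1, fell together. All 5 that were tested were lower DEGs. MT2A was at 165, 118 and 126 CPM in sh-Con and 36.8, 31.2 and 39.2 CPM in sh2-TUG1 (-1.93 ± 0.13, adjusted p of 5.23e-06 by edgeR), MT1E at 38.3, 27.6 and 29.5 CPM in sh-Con and 9.005, 9.23 and 9.82 CPM in sh2-TUG1 and MT1X at 6.39, 5.89 and 5.24 CPM in sh-Con and 2.13, 2.22 and 2.61 CPM in sh2-TUG1. MT1G and MT1F had log2 changes of -1.21 and -0.69, and in each of the 5 the sh2-TUG1 libraries all lay below the controls. MT1F lost its call in 3 of the 6 fits without 1 library, at adjusted p-values up to 0.055 (edgeR). The 5 are near copies of one another on chromosome 16, and the counting may have shared reads among them. In the same list GPX3 and CAT, which remove peroxides, had log2 changes of -1.02 and -0.62, while GPX2 rose from 143, 127 and 127 CPM to 254, 258 and 283 CPM. SLC39A14, a zinc importer of hepatocytes and 1 of the 5 higher DEGs with most CPM, rose from 943, 1138 and 1179 CPM to 2232, 2191 and 1977 CPM (0.97 ± 0.08).

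Since these genes share a control element, their promoters are shown for the members held in the reference, RefSeq windows on GRCh38.p14 that run from 250 bases before the start to 50 after it. Windows were matched by symbol or unique synonym for 9667 of 11864 gene symbols, among them MT2A and MT1X but not the other 3 metallothioneins. The letters TGCGCNC and TGCACNC, the core of the metal response element, were searched on both strands. MT2A held 8 matches in its window and MT1X 4, where 46.2% of all windows held at least 1, 0.993% at least 4 and 0.0414% at least 8. A match is a description and not a bound site. The 250 bases before each start are given below, 5′ to 3′ on the plus strand, with the matches in capitals (7 of the 8 of MT2A lie before the start). They cover chr16:56608334-56608583 for MT2A and chr16:56682220-56682469 for MT1X.
MT2A: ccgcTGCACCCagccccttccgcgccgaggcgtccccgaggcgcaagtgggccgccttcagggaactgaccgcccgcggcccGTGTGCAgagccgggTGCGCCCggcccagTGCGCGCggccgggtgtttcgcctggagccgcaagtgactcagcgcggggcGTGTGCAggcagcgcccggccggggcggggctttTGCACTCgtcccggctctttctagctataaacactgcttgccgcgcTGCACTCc
MT1X: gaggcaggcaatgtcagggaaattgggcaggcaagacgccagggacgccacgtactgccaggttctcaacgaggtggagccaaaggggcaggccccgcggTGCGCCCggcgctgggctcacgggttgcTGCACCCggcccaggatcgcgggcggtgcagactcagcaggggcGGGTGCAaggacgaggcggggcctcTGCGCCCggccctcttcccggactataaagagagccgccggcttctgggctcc

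Lipid genes held a share of lower DEGs near that of all genes. Of 83 tested, 8 (9.64%) were lower and 6 (7.23%) higher DEGs, with a median of -0.01, and without the 2 libraries that stood apart 7 were lower and 7 higher. In bile acid synthesis and signalling SLC51A, above, SLC27A5 (-0.87) and ACOX2 (-0.60), of bile acid activation and side-chain shortening, fell. BAAT, which joins bile acids to glycine or taurine, rose from 8.62, 11.5 and 9.84 CPM to 27.04, 21.6 and 25.5 CPM, and KLB, the co-receptor for FGF19 and FGF21, from 33.1, 38.05 and 37.2 CPM to 67.8, 70.5 and 69.04 CPM. FGFR4, the receptor that pairs with KLB, was at 229, 218 and 216 CPM in sh-Con and 228, 226 and 219 CPM in sh2-TUG1, with overlapping groups.

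Several genes of cholesterol synthesis rose by small amounts. By adjusted p alone 11 of 23 genes (47.8%) were higher and 1 lower, against 21.6% and 21.9% of all genes, and the median was 0.18, but none was a higher DEG. SQLE, SC5D and MVK, of the squalene, lathosterol and mevalonate steps, had log2 changes of 0.39, 0.49 and 0.56 (largest adjusted p of the 3, 8.95e-05, by edgeR). TM7SF2, a sterol reductase, was the 1 lower DEG (-0.66). In fatty acid oxidation PPARGC1A, a coactivator of mitochondrial genes, ETFDH and ACSL1 were higher (0.66, 0.67 and 0.70), and FABP1, HADH and ETFB lower (-1.29, -0.84 and -0.78). FABP1, the fatty acid binder of liver, was at 269, 237 and 174 CPM in sh-Con and 105, 115 and 57.9 CPM in sh2-TUG1, with a wide spread and no overlap. GPAM, the first step of glycerolipid synthesis, was higher (0.69) and AGPAT2, the next step, lower (-0.81).

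Glucose output genes split. G6PC, the catalytic glucose-6-phosphatase of liver, rose from 8.49, 7.80 and 10.2 CPM to 17.1, 17.04 and 20.02 CPM and PCK1, the cytosolic entry enzyme of gluconeogenesis, from 7.65, 6.42 and 5.66 CPM to 11.5, 11.8 and 12.3 CPM. SLC37A4, the transporter that feeds G6PC, fell from 34.9, 32.01 and 31.5 CPM to 13.9, 17.6 and 15.7 CPM, as did G6PC3, the phosphatase of other tissues (-0.70). PPP1R3C, which targets a phosphatase to glycogen, and TKFC, of fructose use, had log2 changes of -1.47 and -1.25. Of the 17 genes of this list 3 (17.6%) were higher and 5 (29.4%) lower DEGs, against 4.35% and 8.97% of all genes.

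Of 28 transcription factors of the hepatocyte, 4 (14.3%) were higher and 2 (7.14%) lower DEGs, against 4.35% and 8.97% of all genes. The share of lower DEGs was thus near that of all genes, and 14 of the 28 did not pass the adjusted p. HNF4A, the factor that many liver genes need, was at 249.9, 248 and 251 CPM in sh-Con and 208, 217 and 227 CPM in sh2-TUG1 (-0.20 ± 0.05, adjusted p of 0.00758 by edgeR), a small fall below the fold limit. CEBPA was 0.04 and FOXA2 -0.02, neither past the test. GATA4, a factor of early liver, rose from 30.1, 25.2 and 27.3 CPM to 56.04, 56.1 and 52.5 CPM, and NR1H4, the bile acid receptor FXR, from 39.04, 41.9 and 55.6 CPM to 69.1, 67.3 and 87.6 CPM. KLF15 and NR5A2 were also higher (0.61 and 0.90), although NR5A2 lost its call without the 2 libraries that stood apart (0.70, adjusted p of 0.12 by edgeR) and in 4 of the 6 fits without 1 library (adjusted p up to 0.0902). NR1I2, the xenobiotic receptor PXR, fell from 15.03, 14.95 and 15.5 CPM to 7.33, 6.03 and 7.28 CPM, while CYP3A5 and CYP3A7, which it is known to induce, were higher as given above.

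Many genes of dividing cells fell, most of them at low levels. Of 38 cell cycle and DNA replication genes 13 (34.2%) were lower DEGs and 1 (2.63%) was higher, against 8.97% and 4.35% of all genes. The median was -0.42, and 14 were lower without the 2 libraries that stood apart. Only 16 of the 38 had a mean of at least 10 CPM, and of these 3 (18.8%) were lower, against 5.56% of all genes at that level. CDK1, the kinase that starts mitosis, was at 4.43, 5.66 and 4.97 CPM in sh-Con and 1.73, 1.66 and 1.999 CPM in sh2-TUG1 (-1.48 ± 0.19, adjusted p of 0.00027 by edgeR). TOP2A, which untangles replicated DNA, fell from 18.7, 17.8 and 20.3 CPM to 7.82, 7.31 and 9.25 CPM, MKI67, a common marker of proliferation, from 6.54, 5.57 and 6.70 CPM to 2.92, 2.66 and 3.02 CPM, and RRM2, of nucleotide supply, from 12.6, 12.6 and 11.99 CPM to 3.56, 5.47 and 5.05 CPM. AURKB, CENPE, CENPF and CCNA2, of mitosis, were further lower DEGs, AURKB at -1.25 and CCNA2 at -0.85. CENPE lost its call without 1 of the libraries, at an adjusted p of 0.058 (edgeR). CCND1, cyclin D1, which lets cells leave G1 and was the most counted of the list, fell from 165, 165 and 180.4 CPM to 101, 103 and 98.7 CPM (-0.75 ± 0.05). PCNA, the replication clamp, had a log2 change of -0.26. Genes of replication licensing moved both ways. MCM4, MCM5, MCM6 and CDT1, of the replicative helicase and its loading, were lower DEGs, while CDC6, of the same step, rose from 18.3, 17.999 and 19.03 CPM to 38.1, 36.9 and 40.2 CPM, CCNE1 was 0.39 and MCM3 0.31, each above sh-Con at an adjusted p under 0.05 (edgeR).

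Promoters of the mitotic genes are known for a short element with the letters TTTGAA. It was found on either strand in the windows of 4 of the 10 lower cell cycle DEGs that had one, namely CDK1, CENPF, MKI67 and TOP2A, against 13.6% of all windows. CCAAT, a general promoter element, was found in 8 of the 10, against 43.4%. The 30 bases that hold the last match before the start are given 5′ to 3′ on the strand of the gene with that match in capitals, which for TOP2A reads as its complement. They cover chr10:128126435-128126464 (minus) for MKI67, chr10:60778448-60778477 (plus) for CDK1 and chr17:40418030-40418059 (minus) for TOP2A, on GRCh38.p14.
MKI67: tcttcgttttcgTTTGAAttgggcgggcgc
CDK1: ccctttagcgcggtgagTTTGAAactgctc
TOP2A: ctgattggtttaTTCAAAcaaaccccggcc

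Histone genes rose or did not pass the test. Of 32 tested, 9 (28.1%) were higher DEGs, against 4.35% of all genes, and none was lower. By adjusted p alone 16 of the 32 were higher, against 21.6% of all genes, and the median log2 change was 0.36. Without the 2 libraries that stood apart 8 were higher, and 4 of the 17 with at least 10 CPM (23.5%) were, against 2.82% of all genes at that level. HIST1H2AC rose from 97.6, 102 and 102 CPM to 201, 204 and 186 CPM (0.96 ± 0.05, adjusted p of 1.51e-06 by edgeR), HIST1H2BD from 7.80, 8.999 and 9.70 CPM to 16.8, 18.7 and 16.1 CPM, and HIST1H4H from 6.48, 5.77 and 5.37 CPM to 12.3, 13.5 and 12.7 CPM. H1F0, a linker histone of resting cells and the most counted of the family, was at 1517, 1452 and 1462 CPM in sh-Con and 1850.3, 1824 and 1789 CPM in sh2-TUG1, a change of 0.30 within the fold limit. H2AFZ, a variant histone of promoters, was at 53.6, 75.2 and 85.4 CPM in sh-Con and 121, 114 and 92.95 CPM in sh2-TUG1 (0.61). Replication-dependent histone transcripts carry no poly(A) tail, and the study describes libraries made from isolated mRNAs. How far the counts cover such transcripts was not tested. Close copies of histone genes are alike, so reads may have been shared among them. CCAAT was found in the windows of 5 of the 6 higher histone DEGs that had one, and TTTGAA in 3, against 43.4% and 13.6% of all windows.

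Other lists moved both ways or fell. Extracellular matrix and adhesion genes had 10 lower DEGs of 37 (27.0%, against 8.97% of all genes) and 1 higher, with a median of -0.31. LOX, which cross-links collagen, fell from 91.2, 93.7 and 92.3 CPM to 34.3, 32.1 and 36.4 CPM, and HSPG2, perlecan of basement membranes, from 59.1, 53.3 and 56.2 CPM to 26.01, 24.5 and 25.6 CPM. FN1, fibronectin, was the most counted of them and had a log2 change of 0.22. Of 24 actin and YAP genes 3 (12.5%) were lower DEGs, against 8.97% of all genes. AXL, a receptor kinase and 1 of the 3, was at 34.9, 34.7 and 41.8 CPM in sh-Con and 13.6, 12.4 and 14.2 CPM in sh2-TUG1. KRT19, a keratin of bile duct and progenitor cells, fell from 365, 336 and 341 CPM to 169, 171 and 170.2 CPM, IGF2, a fetal growth factor, from 1948, 1629 and 1739 CPM to 872, 885 and 893 CPM, and DLK1, a marker of fetal hepatoblasts, from 597, 556 and 559 CPM to 309, 313 and 288 CPM. These 3 and DKK1 (-0.80) were the lower DEGs of 26 Wnt targets and progenitor genes (15.4%, against 8.97% of all genes), none of which was a higher DEG. IGF2 overlaps INS-IGF2 on the same strand.

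Interferon response genes were divided, with 5 higher and 5 lower DEGs of 35 (14.3% each way). Over all genes 4.35% were higher and 8.97% lower. IRF9 and DDX58, a factor and a sensor of that response, rose by 1.18 and 0.88 on the log2 scale, and OAS3 from 46.6, 47.02 and 45.4 CPM to 80.04, 79.2 and 77.99 CPM. USP18, its inhibitor, and IFITM2 had log2 changes of -1.13 and -0.99, while ISG15 did not pass the test (0.10). Cytokines and NF-kB targets moved both ways, with 2 higher and 2 lower DEGs of 10 tested. By adjusted p alone 4 were higher and 3 lower. NFKBIA, the inhibitor of NF-kB, rose from 48.4, 38.99 and 38.6 CPM to 94.1, 91.3 and 88.2 CPM. IER3, the most counted of this list, was the other higher DEG, with a log2 change of 0.61. BIRC3 and TNFAIP3, which NF-kB induces, were the lower DEGs (-1.52 and -1.02). Of 23 p53 targets 2 (8.70%) were higher DEGs, TP53INP1 (1.22) and PPM1D (0.60), against 4.35% of all genes. CDKN1A, the best known, was at -0.01. Among the early response genes EGR1 and DUSP1 rose by 0.60 and 0.66 on that scale and DUSP5 fell, with a log2 change of -1.23.

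Housekeeping families hardly moved past the fold limit. Over all genes 4.35% were higher and 8.97% lower DEGs. None of 83 cytosolic ribosomal protein genes and none of 37 proteasome genes was a DEG in either direction, with medians of -0.03 and -0.02. Of 78 mitochondrial ribosomal protein genes 1 was a higher and 1 a lower DEG (1.28% each). The higher DEG, MRPS6 (0.94), overlaps SLC5A3 on the same strand. By adjusted p alone 22 of the 78 (28.2%) were lower and 7 (8.97%) higher, against 21.9% and 21.6% of all genes. Of 92 respiratory chain genes 3 (3.26%) were lower DEGs, of which MT-ND4, encoded in mitochondria, was at 4285, 3517 and 3269 CPM in sh-Con and 2176, 2236 and 2585 CPM in sh2-TUG1 (-0.66 ± 0.10). By adjusted p alone 30 of the 92 (32.6%) were lower and 5 (5.43%) higher, so small changes leaned downward. Of 77 chaperone rows of the table, with HSPA14 listed under 2 identifiers, 4 (5.19%) were higher and none lower, against 4.35% and 8.97% of all genes. HSPB8 (1.03) and HSPH1 (0.64) were among the 4. PDIA2, another of the 4, lost its call in 5 of the 6 fits without 1 library, at adjusted p-values up to 0.1003 (edgeR).

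The sh2-TUG1 line was then set against sh1-TUG1, the line with the other hairpin, in 1 fit of all 9 libraries over the 12854 genes that both tables share. By the same criteria sh2-TUG1 lay above sh1-TUG1 in 329 genes (2.56%) and below it in 1033 (8.04%). Among the lower were 32 of 108 secreted genes, 22 of 82 amino acid breakdown genes, 34 of 117 detoxification genes and 22 of 38 cell cycle genes, with 1, 1, 7 and 2 higher. Both lines share the sh-Con libraries, so their own changes are given side by side without a test of their likeness.

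Of the 254 named genes tested between the lines, 18 differed by these criteria, changed in opposite directions and passed the adjusted p against sh-Con in sh1-TUG1. Many named genes were chosen for their change in sh2-TUG1, so this count does not stand for a share of all genes. HP was -1.31 in sh2-TUG1 and 1.44 in sh1-TUG1, a difference of -2.75 ± 0.11 with an adjusted p of 5.34e-08 (edgeR). TOP2A was -1.22 against 0.36, TTR -0.82 against 0.47, SERPINA6 -0.92 against 0.33, FTCD -1.06 against 0.33 and MMP11, a matrix protease, -0.99 against 0.66. The early response genes DUSP1 and EGR1 went the other way, at 0.66 and 0.60 in sh2-TUG1 and -0.27 and -0.23 in sh1-TUG1. So did IER3, of the NF-kB list, at 0.61 and -0.29. Other genes fell in sh2-TUG1 and were near 0 in sh1-TUG1. DMGDH was -2.99 and 0.03, HAAO -1.33 and 0.00, NAT8 -1.45 and 0.02, GSTA1 -1.30 and 0.09, and PRODH2 -1.22 and -0.01. The fall of APOL2 did not pass the test between the lines. It was -1.44 and -1.43, with a difference of -0.01 ± 0.06. GATA4 and G6PC, higher in sh2-TUG1 by 1.00 and 1.03, were at 0.82 and 0.78 in sh1-TUG1, with differences of 0.17 ± 0.06 and 0.25 ± 0.13.

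**Figure D4:**
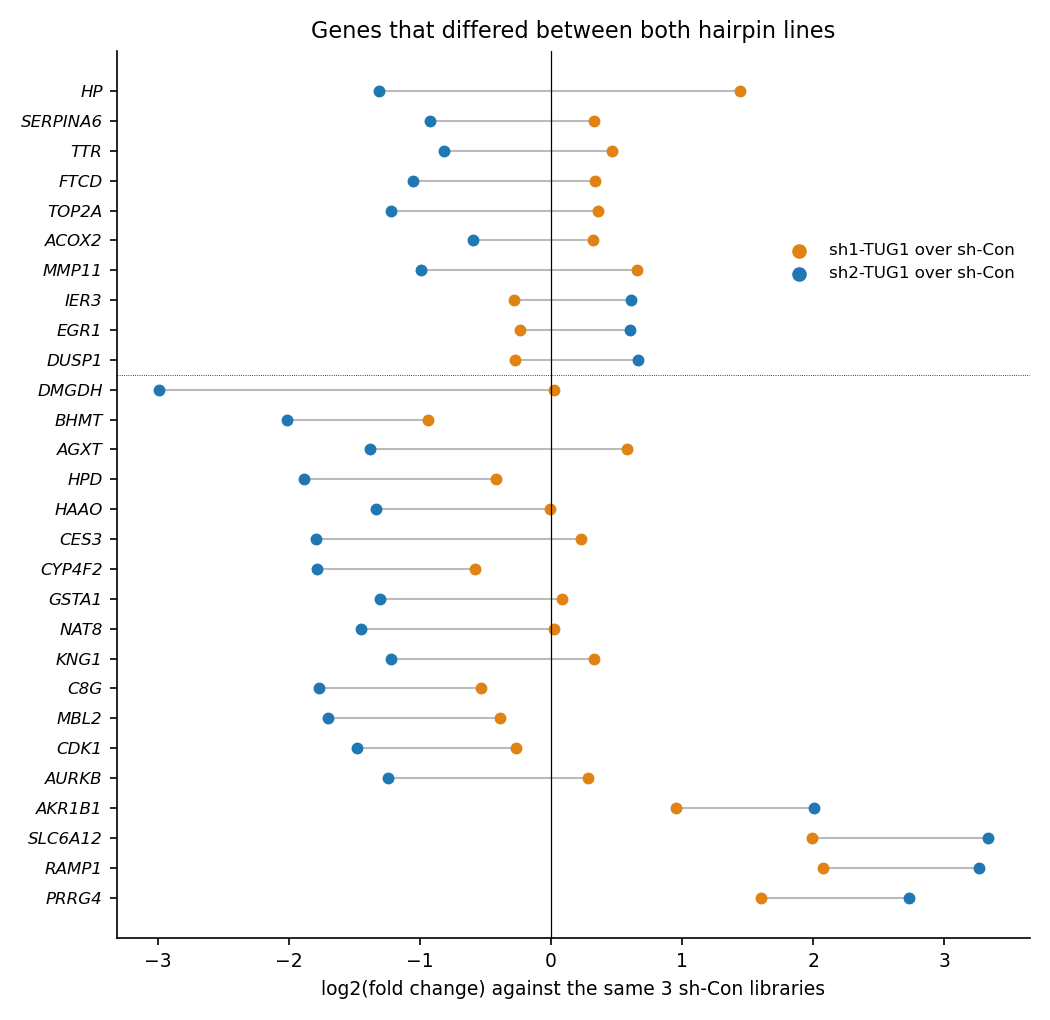
log2(fold change) against the same 3 sh-Con libraries for sh1-TUG1 (orange) and sh2-TUG1 (blue) of 28 named genes whose difference between the lines passed the criteria, with the 10 genes above the dotted line being those on opposite sides of 0 that also passed the adjusted p in sh1-TUG1. Of those 10, HP shows the widest gap. AKR1B1, SLC6A12, RAMP1 and PRRG4 rose in both lines. They were named for their rise in sh2-TUG1, so nothing is read from which line lay further from sh-Con.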

How the data were processed

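RNA-seq of HepG2 lines was used. The authors deposited a table of unnormalized read counts per gene for each knockdown line, with the 3 sh-Con libraries in both. The submitters' processing notes name HISAT2, StringTie and GRCh38. The strand setting of the counting is not given in the sources used here. Also deposited, and not used, were FPKM values and the log2 fold changes and false discovery rates (adjusted p-values) of the authors. Of the 12953 rows, 11871 carry an Ensembl identifier, all found in GENCODE 29, and 1082 are unnamed loci without a position (1.35 to 1.51% of the counts per library). TUG1 was not analysed here.

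The counts were tested in R 4.3.3 with edgeR 4.0.16 (TMM, quasi-likelihood test, Benjamini-Hochberg adjustment over all rows), sh2-TUG1 against sh-Con in 6 libraries and against sh1-TUG1 in 9. DEGs passed an adjusted p of 0.05 and a 1.5-fold change. Log2 fold changes are given with their standard errors, and CPM on TMM library sizes. The script was tested on simulated counts. DESeq2 1.42.0, other scalings, filters, glmTreat, a replicate block and fits without single libraries were alternatives.

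Members, gene lists and tests were chosen with earlier results of these data known, and lists are described by counts beside those of all genes. Named genes were the 10 higher and 10 lower DEGs with the largest change (Ensembl identifier, groups not overlapping, mean of at least 50 counts), the 5 higher and 5 lower DEGs with most CPM, up to 4 DEGs per direction and the most counted member of each list, and listed markers. Other members were named where their list is described. Overlaps are between the extents of protein-coding GENCODE 29 genes: 35 named genes overlap another on the same strand and 44 on the other. Promoter windows exclude chromosome 8. Results for some list members are not reported here.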

Additional observations from a re-analysis of the deposited data

Results flagged for a closer look

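Of the 254 named genes tested between the hairpin lines, 127 differed between sh2-TUG1 and sh1-TUG1 by the DEG criteria (edgeR). Over all 12854 genes 2.56% lay higher and 8.04% lower in sh2-TUG1 by these criteria. Many of the named genes were chosen for their change against sh-Con in sh2-TUG1. Nothing is therefore read from the count of 127 or from which line lay further from sh-Con. The 64 with a log2 difference over 1 in either direction are given here with the value of sh2-TUG1 minus sh1-TUG1. The response of sh2-TUG1 was higher for SLC6A12 (1.35), RAMP1 (1.19), PRRG4 (1.14), AKR1C4 (1.12), AKR1B1 (1.06), HIST1H2BG (1.05) and PDIA2 (1.03). It was lower by more than 1.5 on the log2 scale for AC104452.1 (-3.68), DMGDH (-3.02), HP (-2.75), TUBB1 (-2.40), FXYD3 (-2.06), CES3 (-2.02), AGXT (-1.96), SLC28A1 (-1.95), SLC51A (-1.84), SLC2A3 (-1.83), EPO (-1.82), SERPINA12 (-1.82), CDRT4 (-1.73), MMP11 (-1.65), TOP2A (-1.58), KNG1 (-1.55), MKI67 (-1.52) and AURKB (-1.52). It was lower by between 1 and 1.5 for NAT8 (-1.48), HPD (-1.46), FTCD (-1.39), GSTA1 (-1.39), SULT1C2 (-1.38), HAAO (-1.33), MBL2 (-1.31), ANGPTL4 (-1.30), APOL3 (-1.28), TTR (-1.28), CENPF (-1.28), SERPINA6 (-1.25), C8G (-1.24), EPHX2 (-1.22), CYP4F3 (-1.22), PRODH2 (-1.22), CDK1 (-1.21), CYP4F2 (-1.21), ALDH1L1 (-1.21), CPB2 (-1.19), TKFC (-1.19), SDSL (-1.17), SLC27A5 (-1.13), GSTM4 (-1.12), ALDH6A1 (-1.10), CENPE (-1.09), ALDH3B1 (-1.08), BHMT (-1.07), GPX3 (-1.07), SULT1A1 (-1.06), HSPG2 (-1.05), F13B (-1.04), LIPC (-1.03), PLTP (-1.02), NR1I2 (-1.02), ALDH4A1 (-1.02), CCNA2 (-1.01), FABP1 (-1.0045) and SLCO2B1 (-1.0018). AC104452.1 and DMGDH overlap other genes, as given above, and the cause of the differences was not tested.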

How the results depend on the processing

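The counts of DEGs, higher and lower in turn, were 564 and 1162. They were 566 and 1157 with RLE size factors, 480 and 1304 on library size alone, 565 and 1167 with DESeq2 and 543 and 1194 in 1 fit of all 9 libraries. filterByExpr and a limit of 1 CPM in 3 libraries removed no gene. Without rows that carry no Ensembl identifier they were 473 and 1028. Leaving out single libraries gave 525 to 585 higher and 1062 to 1149 lower, and for sh2-TUG1 against sh1-TUG1 301 to 337 and 916 to 1024. Over the same fits the lower DEGs of the secreted lists numbered 23 to 31, of the amino acid lists 18 to 20, of the detoxification lists 27 to 32, of the lipid lists 7 to 9 and of the cell cycle list 12 to 15, and the higher histones 9 to 10. Testing directly against a fold of 1.5 with glmTreat left 201 higher and 399 lower, with 14 lower in the secreted, 13 in the amino acid, 14 in the detoxification and 3 in the lipid lists, 5 in the cell cycle list and 4 higher histones. By adjusted p alone the counts were 2803 and 2835, with 52, 54, 54 and 23 lower in the 4 areas and 16 higher histones. Among genes with at least 10 CPM they were 261 and 515, with 13 in the amino acid and 16 in the detoxification lists, 3 in the cell cycle list and 4 higher histones. Fewer genes are tested there by construction.

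Replicate numbers do not pair the libraries: the deviations of same-numbered libraries correlated at -0.11, 0.02 and -0.21. With the replicate number as a block 539 genes were higher and 1107 lower, and 314 and 986 against sh1-TUG1. Of the 260 named genes, 22 lost a call without at least 1 single library and 132 did with glmTreat. DESeq2 and the block ended 7 calls each. FGFR4 and KRT8, which passed no test, changed sign. FGFR4 went to -0.0129 on library size alone and -0.0061 with at least 10 CPM. KRT8 went to -0.0242 on library size alone and -0.0178 with at least 10 CPM, and without single libraries it lay between -0.0238 and 0.083, below 0 without sh-Con replicate 2 (-0.0238) and without sh-Con replicate 3 (-0.0216). The lowest quartile of genes had mean counts of 23.3 to 281 over the 6 libraries, which limits the precision of their folds. The cause of these changes was not tested.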

Other observations

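A set of genes for osmolytes, small compounds that cells take up or make when the medium is hypertonic, was looked at after its values were seen. SLC6A12 (3.34) and AKR1B1 (2.01), of betaine uptake and sorbitol synthesis, were both higher DEGs. SLC5A3, the myo-inositol transporter, was at 87.4, 101 and 110.3 CPM in sh-Con and 214, 209.9 and 190.2 CPM in sh2-TUG1 (1.04 ± 0.08), although it overlaps MRPS6 on the same strand. SLC6A6, the taurine transporter, was at 70.4, 64.3 and 65.7 CPM in sh-Con and 78.8, 79.1 and 78.8 CPM in sh2-TUG1 (0.24), and NFAT5, the factor that is known to induce these genes, at 121, 134 and 129 CPM in sh-Con and 175, 170.0 and 169 CPM in sh2-TUG1 (0.42), both past an adjusted p of 0.05 by edgeR and below the fold limit. The 1082 loci with no Ensembl identifier held 8.78% higher and 12.4% lower DEGs.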
